A study of Mus musculus with 2 samples.

Results

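Expression of the genes that present peptides on MHC class II was examined in mouse bone marrow by single-cell RNA sequencing (sc-RNA-seq). The set held 7 genes of the 13211 listed in either count table, and was defined by name: Cd74, H2-Aa, H2-Ab1, H2-Eb1, H2-DMa, H2-DMb2 and Ciita. It was chosen with earlier results of these data known. All 7 were listed in both tables. Marrow came from Col1a1fspKO mice (Fsp1-Cre;Col1a1flox/flox), in which Cre is driven by the Fsp1 (S100a4) promoter, and from Cre-negative Col1a1flox/flox mice, called WT here. Both genotypes therefore carried the floxed Col1a1 allele, and both were taken at 2 months of age. Each genotype was represented by 1 library made from live-sorted, unfractionated marrow of 2 pooled mice, so no spread between animals could be measured. Every interval below is a 95% interval of counting error only, and no difference between the genotypes was tested.

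MHC class II molecules are pairs of an α and a β chain that carry peptides from endosomes to the cell surface, where CD4+ T cells read them. In the mouse, H2-Aa and H2-Ab1 encode the α and β chains of I-A, and H2-Eb1 encodes the β chain of I-E. Cd74, the invariant chain, occupies the groove of a newly made pair and guides it to the endosome. There the H2-DM heterodimer, made of H2-DMa with H2-DMb1 or H2-DMb2, exchanges the remaining invariant chain fragment for peptide. Ciita is the coactivator that switches these genes on, and it acts through proteins bound to the X and Y boxes of their promoters. B cells, dendritic cells and macrophages are the classical presenting cells. In the B lineage, class II rises as cells mature in the marrow.

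Transcripts were counted by unique molecular identifiers (UMIs). The Col1a1fspKO library comprised 8647722 UMIs in 1309 cells and the WT library 8624469 UMIs in 1169 cells, with a median of 4954 and 5534 per cell. Paired values below are in this order, Col1a1fspKO before WT. Col1a1 itself had 3 UMIs in the Col1a1fspKO library and was not listed for WT, which is at or under the 3-count floor and does not check the genotype labels. S100a4, whose promoter drives Cre, had a UMI in 240 of 251 and 250 of 257 cells of the mononuclear phagocyte gate described next. The libraries shared 2 cell barcodes. Cells were assigned by marker genes that included none of the 7 genes, to gates called here precursor B-like (168 Col1a1fspKO and 155 WT cells), mature B-like (71 and 58), plasmacytoid dendritic-like (44 and 30), mononuclear phagocyte-like (251 and 257), progenitor-like (65 and 77), neutrophil-like (522 and 432), erythroid-like (95 and 100) and 5 smaller ones, with 9 and 3 cells left unassigned. Levels are given as CPM, the UMIs of a gene per 1000000 UMIs of the gate, which compares a gene between gates but not one gene with another.

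In GRCm38, 5 of the 7 genes lie in the MHC on chromosome 17. H2-DMa spans chr17:34119541-34139101, H2-DMb2 chr17:34143307-34151555, H2-Ab1 chr17:34257689-34269419, H2-Aa chr17:34282744-34287823 on the reverse strand, and H2-Eb1 chr17:34305867-34316674. Ciita lies at chr16:10480059-10528418, and Cd74 is also outside the MHC. The model of H2-DMa overlaps Brd2 on the opposite strand and CR974462.3 on the same strand, that of H2-Eb1 overlaps Gm20513 and that of Ciita overlaps Dexi on the opposite strand, so reads of these genes may be shared.

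The promoters of class II genes are where Ciita is known to act, and 5 are shown because 4 of them have the X and Y strings in the same order and at a near-equal distance. Each line holds the 150 bases before the RefSeq start, written 5′ to 3′ on the strand of the gene. Capitals mark NAACNNATG, a string of the X box, and ATTGG, the core of the Y box, each searched on both strands, and the marked strings do not overlap.
H2-Aa, chr17:34287824-34287973, reverse strand: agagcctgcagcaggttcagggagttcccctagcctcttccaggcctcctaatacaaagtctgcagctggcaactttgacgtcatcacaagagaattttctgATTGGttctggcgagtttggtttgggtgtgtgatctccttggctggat
H2-Eb1, chr17:34305717-34305866, forward strand: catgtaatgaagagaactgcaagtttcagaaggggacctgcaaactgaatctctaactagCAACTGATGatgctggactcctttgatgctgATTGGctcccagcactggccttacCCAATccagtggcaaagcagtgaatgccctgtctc
H2-DMb2, chr17:34145099-34145248, forward strand: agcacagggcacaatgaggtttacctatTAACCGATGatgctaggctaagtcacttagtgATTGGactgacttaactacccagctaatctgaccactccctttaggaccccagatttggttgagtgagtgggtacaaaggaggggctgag
H2-DMb1, chr17:34153041-34153190, forward strand: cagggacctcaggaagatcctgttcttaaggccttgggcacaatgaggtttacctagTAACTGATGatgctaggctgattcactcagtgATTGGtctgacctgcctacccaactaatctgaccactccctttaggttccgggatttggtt
H2-Ob, chr17:34238755-34238904, forward strand: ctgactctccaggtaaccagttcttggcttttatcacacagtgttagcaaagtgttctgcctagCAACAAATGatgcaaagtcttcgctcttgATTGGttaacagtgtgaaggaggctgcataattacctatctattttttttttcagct
The first bases of the X and Y strings were 31 bases apart in H2-Eb1, 32 in H2-DMb2, 32 in H2-DMb1 and 29 in H2-Ob. H2-Eb1 held a further Y string on the opposite strand, and H2-Aa held the Y string without the X string as spelled here. H2-Oa, which was searched but is not printed, likewise held only the Y string. Neither string was present in the 2 windows of 150 bases held for H2-DMa, chr17:34122682-34122831 and chr17:34125368-34125517. Both windows lie inside the gene model given above, which overlaps Brd2. Any other start of H2-DMa was not searched, so these windows do not show that the gene lacks the strings. The printed window of H2-DMb2 also lies inside its gene model. That of H2-DMb1 overlaps its own model, which starts at chr17:34153072. Among the 250 bases before the start of 32851 RefSeq promoters, 7.70% held the X string and 33.8% the Y string, and 22 promoters (0.0670%) held the X string followed by the Y string within 25 to 35 bases. That range was set after these promoters had been read. A match describes letters in a window and is not evidence of binding.

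The 7 genes were not spread evenly over the marrow. Mature B-like cells had the highest summed level, at 10630.2 CPM (interval 10246 to 11025) and 9133 CPM (8793 to 9483). Plasmacytoid dendritic-like cells followed with 3669 CPM (3413 to 3939) and 5505 CPM (5119.8 to 5912). Mononuclear phagocyte-like cells had 1462 and 1442 CPM, and precursor B-like cells had 662 and 688 CPM. Progenitor-like cells had 166 and 172 CPM, neutrophil-like cells 51.9 and 73.5 CPM, and erythroid-like cells 37.6 and 32.8 CPM. The order of these 7 gates, which had at least 30 cells in each library, was the same in both. The intervals of neighbours in it did not overlap, apart from those of neutrophil-like cells (43.4 to 61.6 CPM) and erythroid-like cells (27.4 to 50.3 CPM) of the Col1a1fspKO library. The place of mononuclear phagocyte-like cells rested on few cells, as the 5 highest held 53.4% and 68.1% of the gate's UMIs of the 7 genes. By the median cell, precursor B-like cells (316 and 292 CPM) lay above mononuclear phagocyte-like cells (227 and 207 CPM) in both libraries.

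**Figure D1:**
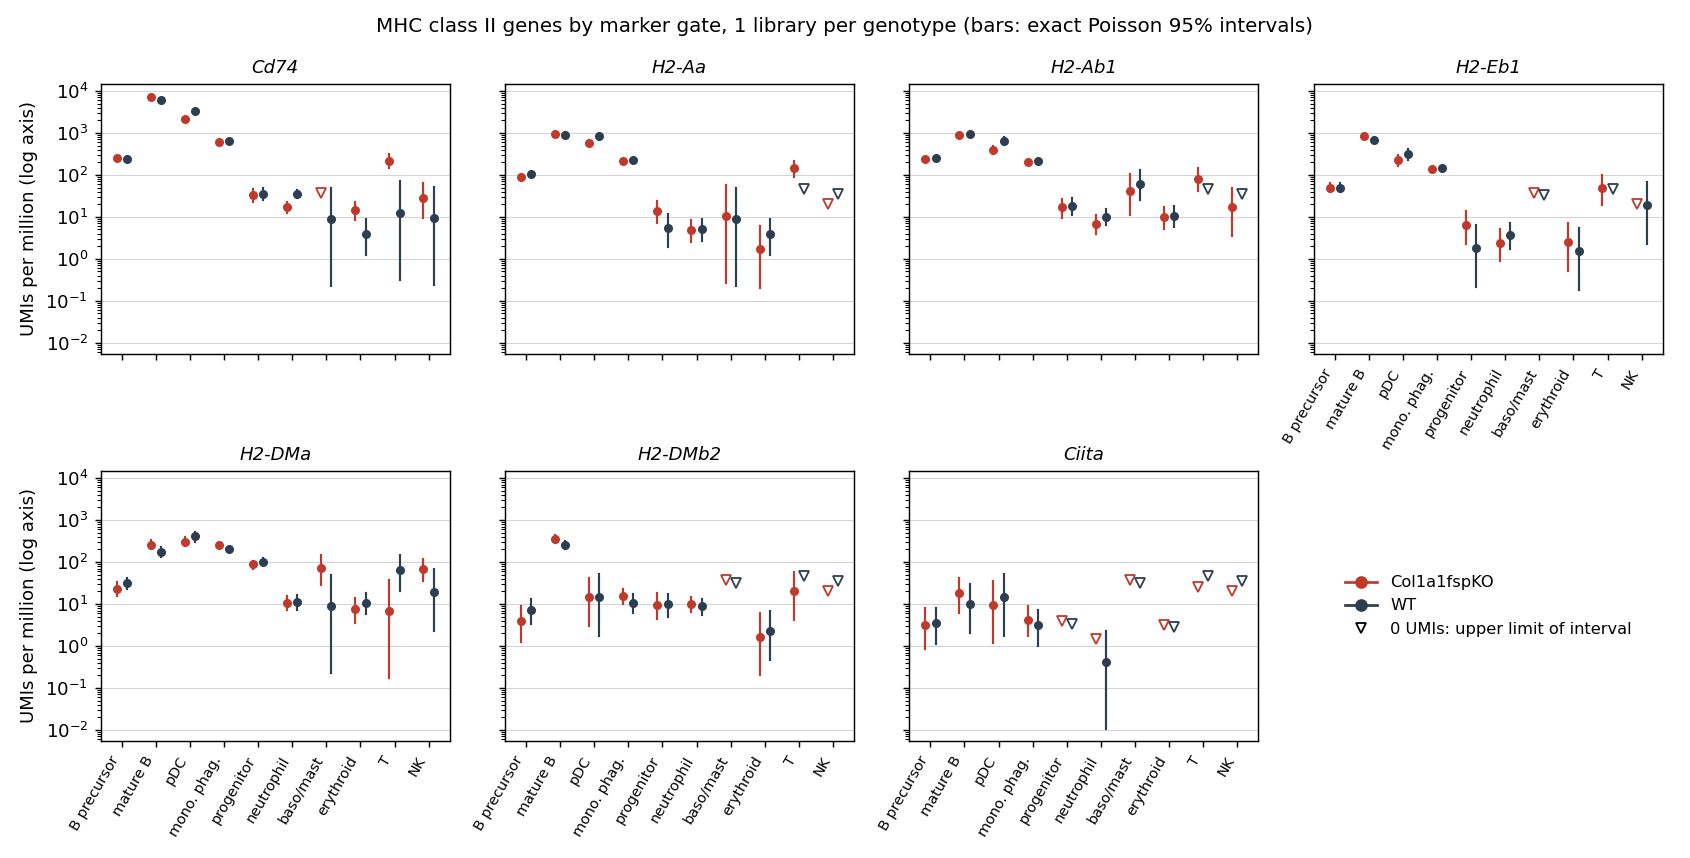
Level of each gene in CPM (log axis) in 10 marker gates, for Col1a1fspKO (red) and WT (dark blue), 1 library each, with exact Poisson 95% intervals. Open triangles mark the upper limit where no UMI was counted. Cd74, H2-Aa, H2-Ab1 and H2-Eb1 were highest in mature B-like cells, H2-DMb2 stood out there alone, and H2-DMa was at 175 to 407 CPM in mature B-like, plasmacytoid dendritic-like (pDC) and mononuclear phagocyte-like cells, with pDC above the other gates in WT.

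Together, mature B-like and mononuclear phagocyte-like cells held most class II transcripts of the marrow. Mature B-like cells were 5.42% and 4.96% of the cells but held 39.1% and 37.1% of the UMIs of the 7 genes. Mononuclear phagocyte-like cells held 32.3% and 31.7%, precursor B-like cells 11.3% and 13.3%, and plasmacytoid dendritic-like cells 10.3% and 10.4%. All other gates together held 6.97% and 7.47%. Single genes departed from this division. For Cd74, 50.7% and 47.5% of UMIs were in mature B-like cells. For H2-DMa, 57.3% and 50.2% were in mononuclear phagocyte-like cells, and 20.7% and 26.1% were outside the 4 main gates. For H2-Ab1, 28.6% and 31.7% were in precursor B-like cells, a larger share than for any other member, Ciita being next with 22.2% of 18 and 31.3% of 16 UMIs.

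**Figure D2:**
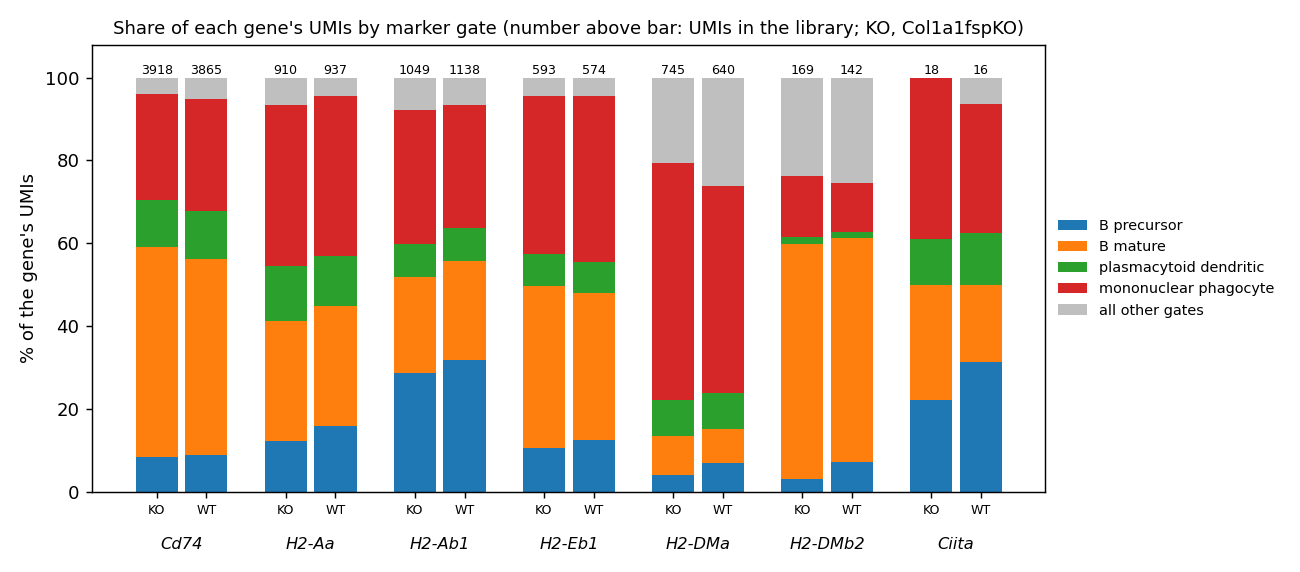
Share of each gene's UMIs (%) found in the 4 main gates and in all others, for Col1a1fspKO (KO) and WT, with the number of UMIs above each bar. H2-DMa was weighted towards mononuclear phagocyte-like cells, H2-DMb2 towards mature B-like cells and H2-Ab1 towards precursor B-like cells, in both libraries.

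In the B lineage, 6 of the 7 genes were higher in mature than in precursor cells of both libraries, by very different factors, while Ciita rested on at most 5 UMIs in either gate. Summed, the genes were 16.1-fold higher in mature than in precursor B-like cells of the Col1a1fspKO library (interval 14.9 to 17.4) and 13.3-fold higher in WT (12.3 to 14.3). Cd74 was at 258 and 238 CPM in precursors and at 7289.9 and 6167 CPM in mature cells, 28.3-fold (25.2 to 31.9) and 26.0-fold (23.1 to 29.3) higher. H2-Ab1 was at 236 and 254 CPM in precursors and at 899 and 921 CPM in mature cells, 3.81-fold (3.20 to 4.52) and 3.62-fold (3.08 to 4.25) higher. The other chains lay between, H2-Aa at 10.9-fold and 8.77-fold and H2-Eb1 at 17.1-fold and 13.7-fold. The intervals of these folds were far apart for Cd74 and H2-Ab1 in both libraries. H2-DMb2 had only 5 and 10 UMIs in precursor B-like cells against 96 and 77 in mature ones, a fold of 89.5 (37.0 to 282) and 36.7 (18.9 to 79.7).

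The early presence of H2-Ab1 was also seen in how many cells held it. A UMI of H2-Ab1 was found in 60.1% and 71.6% of precursor B-like cells and in 62.0% and 62.1% of mature B-like cells. Cd74, by contrast, was found in 36.9% and 34.8% of precursor cells and in 97.2% and 98.3% of mature cells. When each cell was thinned to 2500 UMIs, H2-Ab1 was found in 36.3% and 43.2% of precursor and in 52.1% and 51.7% of mature cells, and Cd74 in 26.8% and 25.8% of precursor and in 95.8% and 93.1% of mature cells. Neutrophil-like cells, which should lack these transcripts, gave the background: 3.64% and 4.4% of them held a Cd74 UMI and 3.07% and 3.94% an H2-Ab1 UMI, at a median depth of 3968.5 and 4541.5 UMIs, against 5118 and 6576 UMIs in precursor B-like cells. The number of H2-Ab1 UMIs for each Cd74 UMI was 0.917 (0.782 to 1.08) and 1.07 (0.921 to 1.25) in precursor B-like cells. It was 0.123 and 0.149 in mature B-like cells, 0.185 and 0.200 in plasmacytoid dendritic-like cells, and 0.336 and 0.324 in mononuclear phagocyte-like cells. Precursor B-like cells were thus set apart from the other 3 main gates by this ratio in both libraries.

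Within the precursors, cells were split by a UMI of Igll1, a part of the surrogate light chain of the pre-B cell receptor, or Dntt, the terminal transferase of early B cells, both of them markers of the precursor gate. Cd74 was lower in cells with either transcript, at 80.0 CPM (61.7 to 102) and 143 CPM (121 to 168), than in those with neither, at 573 CPM (506 to 647) and 511 CPM (440.1 to 589.8). H2-Aa was likewise lower, at 24.6 and 83.4 CPM against 201 and 165 CPM. H2-Ab1 was lower too, at 150.1 and 182 CPM against 389.6 and 464 CPM, a smaller factor than for Cd74 in both libraries but not smaller than for H2-Aa in WT. Its UMIs were found in similar shares of cells on both sides of the split, 61.8% and 70.5% of cells with Igll1 or Dntt and 58.7% and 73.1% of cells without. Cells with Igll1 or Dntt numbered 76 and 88, those without 92 and 67. Depth differed across the split, with a median of 7001 and 10482.5 UMIs in the former and 4747 and 5185 in the latter, and the shares were not thinned.

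Plasmacytoid dendritic-like cells, the interferon-producing dendritic lineage, included cells with many class II chain transcripts and cells with very few. Here the UMIs of Cd74, H2-Aa, H2-Ab1 and H2-Eb1 were added in each cell, leaving H2-DMa out. The cut at 10 such UMIs was chosen after seeing the data and marks a range, not a cell type. At least 10 were counted in 17 of 44 Col1a1fspKO cells (38.6%, exact binomial interval 24.4 to 54.5) and in 16 of 30 WT cells (53.3%, 34.3 to 71.7). Near the cut, 6 of the 44 and 2 of the 30 cells had 5 to 15 UMIs. Above the cut, Cd74 was at 5724 and 6635 CPM. Below it, Cd74 was at 264 and 98.9 CPM, and H2-Aa at 29.3 and 28.3 CPM from 4 and 2 UMIs. The cut was made on these genes, so their difference across it is a description.

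Genes that did not define the cut were present on both sides of it, some at unequal levels. Siglech, a surface lectin of plasmacytoid dendritic cells and one of the gate's markers, was at 1955 and 1662 CPM in cells above the cut and at 1144 and 1371 CPM below it. Of the 8 markers of the gate, Klk1 differed most clearly, at 759 CPM (571 to 991) and 1108 CPM (870.3 to 1391) above the cut and at 301 CPM (216 to 408) and 297 CPM (184 to 454) below it. Smim5, another of these markers, was at 886 and 674 CPM above and at 403 and 481 CPM below. Ccr9, Pacsin1 and Mctp2 went the other way in Col1a1fspKO, at 281, 197 and 98.4 CPM above and 418, 213 and 117 CPM below. In WT these markers were at 225, 374 and 105 CPM above and at 127, 155 and 56.5 CPM below. Cox6a2 and Atp1b1 were higher above the cut in both libraries. Irf8, a transcription factor of this lineage, was at 3699 and 4119 CPM above and 3169 and 4241 CPM below. H2-DMa was at 281 CPM (172 to 434) and 419 CPM (279 to 606) above the cut, and at 323 CPM (235 to 433) and 396 CPM (263 to 572) below it. The intervals for H2-DMa above and below the cut overlapped in both libraries. Ly6d, a surface protein of lymphoid cells, was higher below the cut, at 1856 and 4198 CPM against 816 and 1932 CPM above it.

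**Figure D3:**
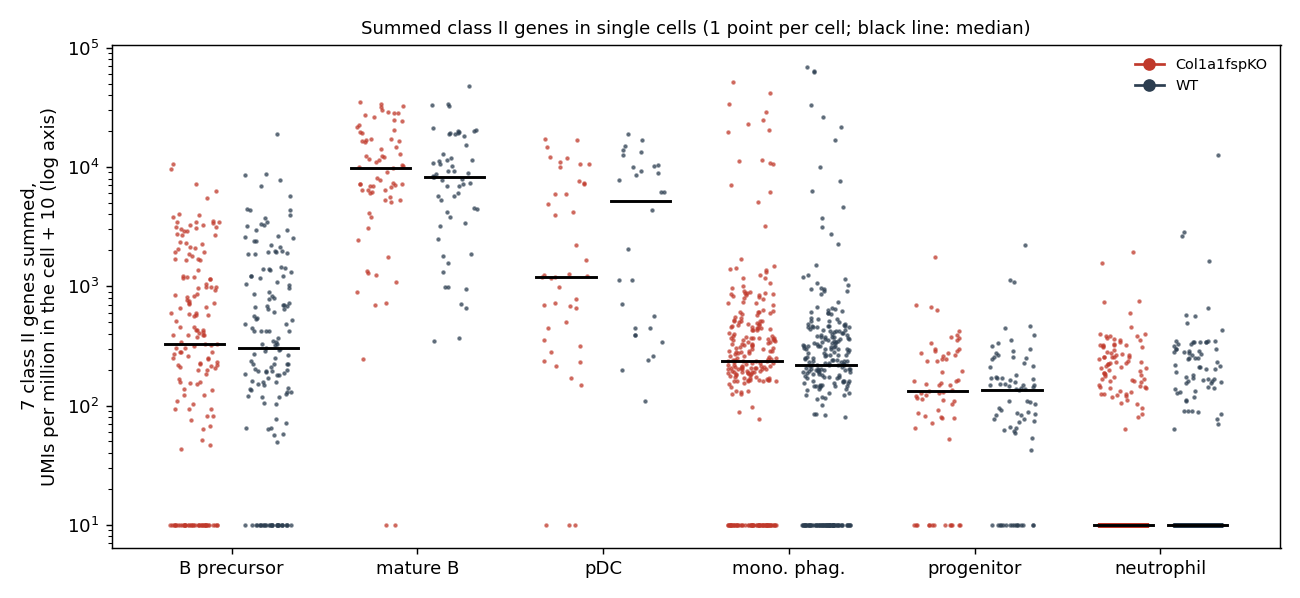
Summed CPM of the 7 genes in single cells (10 added, log axis), 1 point per cell, with black lines at the median of the cells, for Col1a1fspKO (red) and WT (dark blue). Plasmacytoid dendritic-like (pDC) cells spread over a high and a low range, a few mononuclear phagocyte-like cells lie far above the rest, and the median neutrophil-like cell has no class II UMI (points at the bottom).

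Among mononuclear phagocyte-like cells, class II transcripts were concentrated in very few cells. The median cell had 227 and 207 CPM of the 7 genes summed, while the highest had 51622 and 68186 CPM. The 5 highest cells held 53.4% of the UMIs in Col1a1fspKO and 68.1% in WT, and 22 of 251 and 17 of 257 cells had at least 10 UMIs of the 7 genes. H2-Aa was found in 9.16% and 8.17% of the cells and H2-Eb1 in 8.37% and 5.45%. The gate joined cells that scored highest for monocyte (237 and 245 cells), conventional dendritic (6 and 8) and macrophage markers (8 and 4). In WT, the 8 conventional dendritic-like cells had 10359.5 CPM of Cd74 and the monocyte-like cells 268 CPM. In Col1a1fspKO, the 6 conventional dendritic-like cells had 287 CPM and the monocyte-like cells 635 CPM. The single richest cell scored highest for monocyte markers in Col1a1fspKO and for conventional dendritic markers in WT. Rich cells also occurred among monocyte-like cells of WT, which had 971 of the gate's 2317 class II UMIs, with up to 203 in a cell.

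One further feature moved with these cells. Of the Col1a1fspKO mononuclear phagocyte-like cells, 13 had at least 2% of their UMIs in S100a8 and S100a9, the abundant neutrophil transcripts, and these held 717 of the 2389 class II UMIs of the gate. The 15 such cells of WT held 36 of 2317. The single richest Col1a1fspKO cell, with 530 class II UMIs, had 7.18% of its UMIs in S100a8 and S100a9. Scrublet, a doublet caller, marked only 5 cells of each library, and 3 and 2 of these were among the 59 and 52 cells outside the neutrophil gate with such a share.

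H2-DMa did not follow the other members in the myeloid gates. A UMI of H2-DMa was found in 68.1% and 64.2% of mononuclear phagocyte-like cells, in 58.5% and 63.6% of progenitor-like cells, and in 3.45% and 4.17% of neutrophil-like cells. After thinning to 2500 UMIs these shares were 35.5% and 38.5%, 21.5% and 18.2%, and 1.92% and 1.85%, in the same order. The 5 highest mononuclear phagocyte-like cells held 16.9% and 12.8% of its UMIs, against 59.8% and 73.6% for Cd74. By level, H2-DMa was at 261 and 199.8 CPM in mononuclear phagocyte-like cells and at 261 and 175 CPM in mature B-like cells, whereas Cd74 was 11.8-fold and 9.49-fold higher in the latter. In progenitor-like cells H2-DMa was at 87.8 CPM (70.0 to 109) and 101.5 CPM (83.7 to 122), 8.15-fold and 9.29-fold above neutrophil-like cells. Cd74 in progenitor-like cells was at 32.4 and 35.6 CPM, 1.89-fold (1.15 to 3.07) and 1.03-fold (0.690 to 1.53) above neutrophil-like cells. The number of H2-DMa UMIs for each Cd74 UMI was accordingly 2.71 and 2.85 in progenitor-like cells, 0.423 and 0.307 in mononuclear phagocyte-like cells and 0.0358 and 0.0284 in mature B-like cells.

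The balance of the 2 genes for the β chain of H2-DM differed between gates. In mature B-like cells, 96 and 77 UMIs were of H2-DMb2 and 7 and 9 of H2-DMb1, a ratio of 13.7 (6.41 to 35) and 8.56 (4.28 to 19.4). In mononuclear phagocyte-like cells, 25 and 17 UMIs were of H2-DMb2 and 123 and 127 of H2-DMb1, a ratio of 0.203 (0.127 to 0.314) and 0.134 (0.0756 to 0.223). The ratio was 0.0811 and 0.0800 in plasmacytoid dendritic-like cells and 0.225 and 0.256 in progenitor-like cells. The ratios of mature B-like cells lay far above those of these 3 gates, and the intervals did not overlap. The 2 genes are neighbouring, closely related copies, and reads common to both could have been divided or dropped during counting. Both promoters, printed above, held a match to the X and Y strings, at the same spacing.

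Neutrophil-like cells lay between these gates in the ratio. They had 25 and 21 UMIs of H2-DMb2 and 9 and 6 of H2-DMb1, a ratio of 2.78 (1.25 to 6.76) and 3.50 (1.37 to 10.6), with intervals that overlapped those of mature B-like cells. The H2-DMb2 UMIs were spread over 24 of 522 and 21 of 432 cells with at most 2 in a cell, and the level was 9.98 and 8.82 CPM. For each Cd74 UMI there were 0.581 (0.340 to 0.974) and 0.256 (0.151 to 0.418) H2-DMb2 UMIs in neutrophil-like cells, against 0.0483 and 0.0420 in mature B-like cells. Relative to Cd74, H2-DMb2 was thus higher in neutrophil-like than in mature B-like cells of both libraries, and these intervals did not overlap. The same held for progenitor-like cells, at 0.290 (0.122 to 0.625) and 0.275 (0.127 to 0.546), so it was not particular to neutrophil-like cells. H2-DMb2 itself was at 9.41 and 9.79 CPM in progenitor-like and at 15.3 and 10.6 CPM in mononuclear phagocyte-like cells. In WT, 34 of the 82 Cd74 UMIs of neutrophil-like cells were in 1 cell, which also had 6 UMIs of Cd79a, a chain of the B cell receptor.

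**Figure D4:**
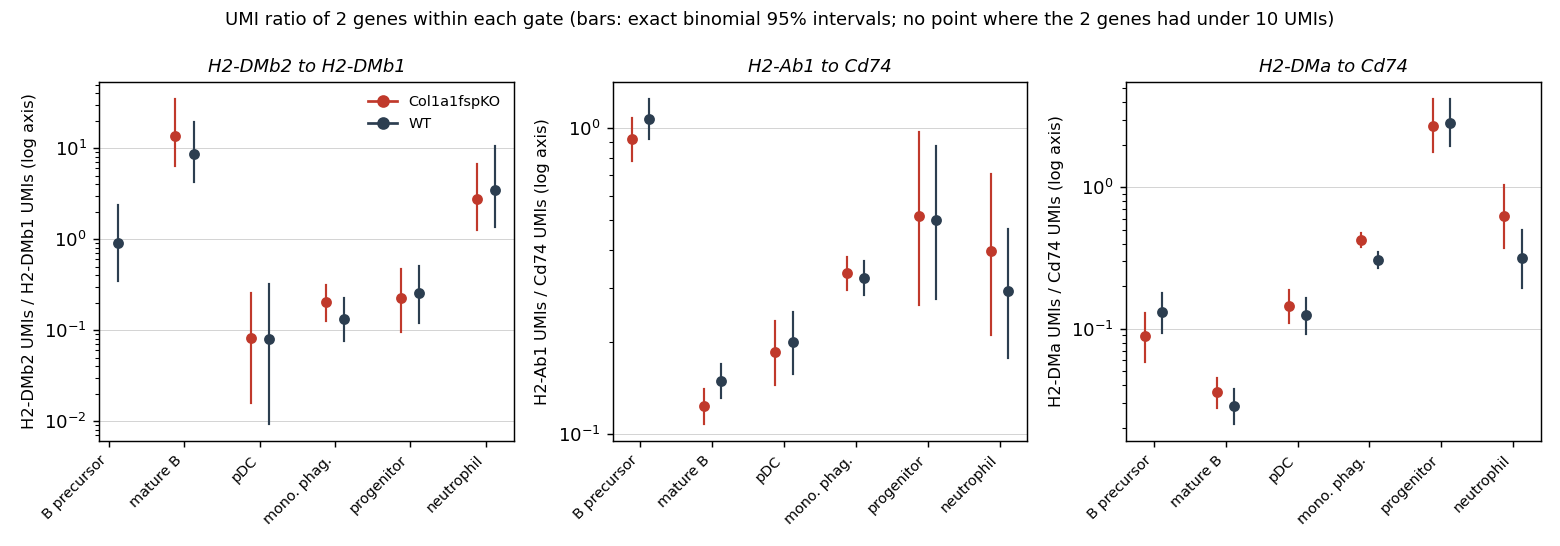
Number of UMIs of one gene for each UMI of another (log axes) in 6 gates, for Col1a1fspKO (red) and WT (dark blue), with exact binomial 95% intervals. The H2-DMb2 to H2-DMb1 ratio is above 1 in mature B-like and neutrophil-like cells and below 1 in mononuclear phagocyte-like, plasmacytoid dendritic-like (pDC) and progenitor-like cells, H2-Ab1 to Cd74 is highest in precursor B-like cells, and H2-DMa to Cd74 is highest in progenitor-like cells.

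Ciita was close to the limit of detection, with 18 UMIs in 16 Col1a1fspKO cells and 16 UMIs in 14 WT cells. All 16 and 13 of the 14 cells lay in the 4 main gates. Of the cells with a Ciita UMI, 12 and 10 also had at least 10 UMIs of the other members, a level reached by 138 of 1309 and 123 of 1169 cells with Ciita counted in. By gate, Ciita had 5 and 3 UMIs in mature B-like, 4 and 5 in precursor B-like, 2 and 2 in plasmacytoid dendritic-like and 7 and 5 in mononuclear phagocyte-like cells. Neutrophil-like cells had 0 and 1 UMI. No UMI was counted in 65 and 77 progenitor-like cells, which allows up to 4.62% and 3.90% of cells with a Ciita UMI and does not limit the share of cells that express it. In Col1a1fspKO its level in mature B-like cells was 5.82-fold (1.25 to 29.4) that in precursors and 4.29-fold (1.07 to 15.7) that in mononuclear phagocyte-like cells, while in WT the same folds were 2.86 (0.445 to 14.7) and 3.24 (0.503 to 16.7). No difference between the genotypes was detectable for Ciita at these counts.

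The comparison of the genotypes asked whether loss of Col1a1 in Fsp1-expressing cells changed these genes in the marrow. Over all cells the 7 genes summed to 7402 and 7312 UMIs, or 856 and 848 CPM, a ratio of 1.01 (0.977 to 1.04). Genes with at least 50 UMIs over both libraries were called when the libraries differed by at least 1.5-fold in either direction, a rule of size without a test. Over all cells 0 of 6 members with enough UMIs were called, where 5.93% of 9725 genes were (3% higher and 2.93% lower in Col1a1fspKO). In precursor B-like cells 0 of 5 were called, where 7.98% of 5089 genes were (3.95% higher and 4.03% lower). In mature B-like cells 0 of 6 were called, where 16.6% of 1442 genes were (3.74% higher and 12.8% lower). In mononuclear phagocyte-like cells 0 of 5 were called, where 7.27% of 5169 genes were (3.66% higher and 3.62% lower). In plasmacytoid dendritic-like cells 2 of 5 were called, Cd74 and H2-Ab1, both lower in Col1a1fspKO, where 13.2% of 851 genes were called (4.94% higher and 8.23% lower). A count of 0 among 5 or 6 genes cannot be told apart from these background shares. The count of 2 of 5 was not tested against its share. Most UMIs of Cd74 and H2-Ab1 in that gate lay in the same 17 Col1a1fspKO and 16 WT cells, so these genes were not independent.

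**Figure D5:**
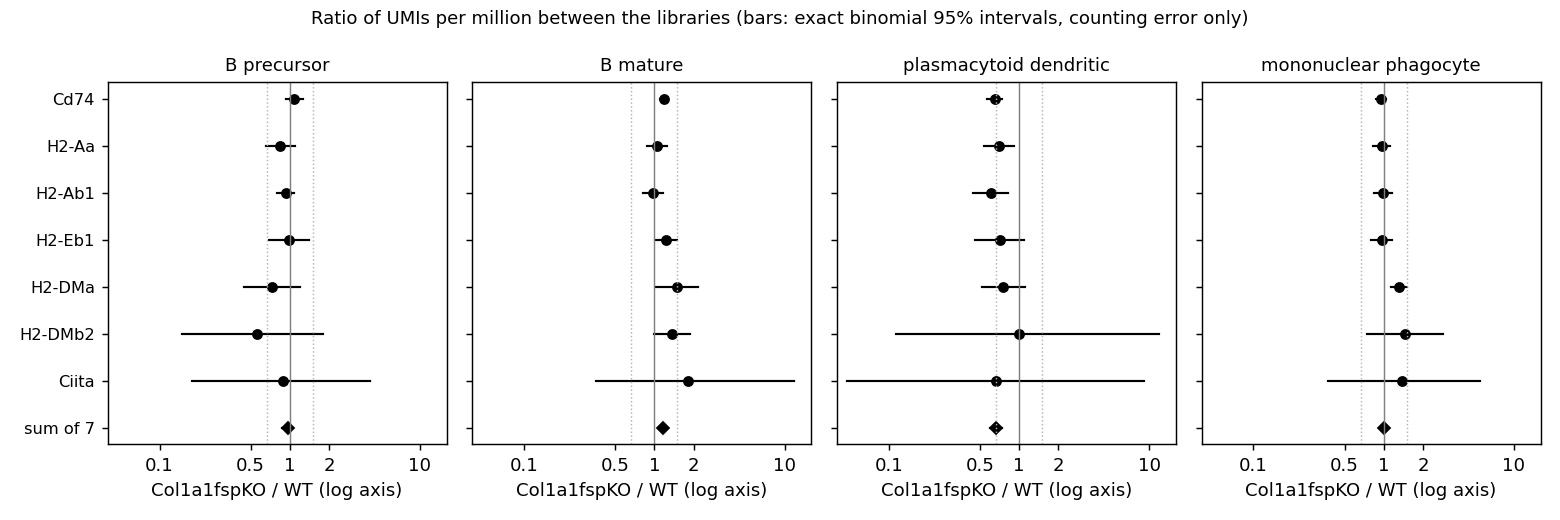
Ratio of CPM in Col1a1fspKO over WT (log axis) for each gene and for the sum, in the 4 main gates, with exact binomial 95% intervals of counting error. The solid line marks equal levels and the dotted lines 1.5-fold, and only in plasmacytoid dendritic-like cells does the ratio of the sum reach the lower dotted line.

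In mature B-like cells the summed ratio was 1.16 (1.10 to 1.23). Cd74 had a ratio of 1.18 (1.11 to 1.26), from 7289.9 and 6167 CPM. H2-DMa had a ratio of 1.49 (1.03 to 2.17), from 71 and 52 UMIs, just inside the limit of 1.5, and 1.33 to 1.6 under the alternatives run. H2-Ab1 had a ratio of 0.976 (0.818 to 1.16) and H2-Aa of 1.05 (0.884 to 1.25). The members' median log2 ratio was 0.27, against -0.09 over all genes with enough UMIs. Single cells overlapped widely: the middle of their range ran from 5405 to 17093 CPM (first to last quartile) in the former library and from 3891 to 14559 CPM in the latter. In WT, the highest cell held 10.5% and the 5 highest 32.0% of the gate's UMIs of the 7 genes, against 4.01% and 18.2% in Col1a1fspKO. The UMI-based intervals take no account of the choice of 71 and 58 cells, and are too narrow for that reason. In cells with at least 2909 UMIs in both libraries the summed ratio was 1.04.

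In precursor B-like cells the summed ratio was 0.962 (0.876 to 1.06), and the intervals of all 7 members included 1. The members' median log2 ratio was -0.11, against 0.00 over all genes. With cells assigned by clusters the summed ratio was 0.730.

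In plasmacytoid dendritic-like cells all 5 members with enough UMIs had ratios below 1. The summed ratio was 0.666 (0.602 to 0.738), Cd74 had 0.653 (0.571 to 0.746), H2-Ab1 0.604 (0.442 to 0.824) and H2-Aa 0.704 (0.540 to 0.917). The median log2 ratio was -0.51, against -0.07 over all genes. Cd74 ranged from 0.609 to 0.701 and H2-Ab1 from 0.552 to 0.856 under the alternatives run, so neither stayed past 1.5-fold in all of them. The median cell had 1193 and 5210.4 CPM of the 7 genes. The median number of chain UMIs was 3.5 and 19, on either side of the chosen cut of 10. The share of cells above the cut was lower in Col1a1fspKO, but the intervals of 38.6% and 53.3% overlapped widely. The UMI-based interval of the ratio takes no account of the choice of 44 and 30 cells, and is too narrow for that reason.

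In mononuclear phagocyte-like cells the summed ratio was 1.01 (0.957 to 1.07), and Cd74 had 0.951 (0.871 to 1.04). The median log2 ratio of the members was -0.05, against 0.00 over all genes. The near-equal sums rested on few cells. Without the 13 and 15 cells with at least 2% of UMIs in S100a8 and S100a9, the summed ratio was 0.709. With the monocyte-like cells alone it was 2.29. H2-DMa, which was spread over most cells of the gate, had 427 and 321 UMIs and a ratio of 1.31 (1.13 to 1.52), but 1.003 after thinning each cell to 2500 UMIs.

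The wider class II pathway was followed through a list of 30 further names, of which 26 were listed in the tables. They comprised the remaining class II chains, the H2-DO modulators of H2-DM, endosomal proteases, transcription factors of the X and Y boxes, lineage factors and costimulatory molecules. H2-Oa and H2-Ob, the chains of the H2-DO inhibitor of H2-DM, were highest in mature B-like cells among the 4 main gates, at 136 and 111 CPM and at 136 and 114 CPM. In mononuclear phagocyte-like cells H2-Oa was at 6.73 and 4.36 CPM and H2-Ob at 1.22 and 2.49 CPM. H2-Oa was also found in 5 of 11 and 13 of 19 basophil or mast-like cells, at 71.4 CPM (28.7 to 147) and 124 CPM (67.6 to 207), where Cd74 had 0 and 1 UMI. For each H2-DMa UMI, mature B-like cells held 0.521 and 0.654 H2-Ob UMIs and mononuclear phagocyte-like cells 0.00468 and 0.0125.

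The enzymes of antigen processing differed by gate. Ctss, cathepsin S, which degrades the invariant chain in presenting cells, was at 625 and 637 CPM in mononuclear phagocyte-like cells and at 180 and 168 CPM in mature B-like cells. Ctsl, cathepsin L, was at 309 and 276 CPM in plasmacytoid dendritic-like cells and at 37.9 and 33.6 CPM in mononuclear phagocyte-like cells. Ifi30, a thiol reductase of the endosome that opens disulfide bonds of antigens, was at 716 and 367 CPM in mature B-like cells and at 368 and 329 CPM in mononuclear phagocyte-like cells. Of the factors of the X and Y boxes, Nfyb, a subunit of NF-Y, was at 47.7 and 77.3 CPM in mature B-like cells and at 104 and 109 CPM in precursors, and Rfx5, a subunit of RFX, had 4 and 5 UMIs in mature B-like cells. Cd83 and Cd40, surface molecules of activated presenting cells, were at 158 and 90.8 CPM and at 69.7 and 57.2 CPM in mature B-like cells, and at no more than 2.36 CPM in precursors.

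Between genotypes, Ifi30 was the pathway gene called in both B-lineage gates. It had 195 and 109 UMIs in mature B-like cells, a ratio of 1.95 (1.54 to 2.49), and 79 and 22 UMIs in precursor B-like cells, a ratio of 4.01 (2.48 to 6.76). In mononuclear phagocyte-like cells the ratio was 1.12 (0.995 to 1.26). A higher value was not particular to the B lineage. In progenitor-like cells, with 60 and 41 UMIs, the ratio of Ifi30 was 1.72 (1.14 to 2.62). Over all cells it was 1.34 (1.22 to 1.48), while in erythroid-like cells it was 0.633 (0.312 to 1.24). Under the alternatives run, its ratio was 1.62 to 2.16 in mature B-like cells and 1.62 to 5.84 in precursor B-like cells, the lowest value for precursors with cells assigned by clusters. By the same rule of size, 2 of 7 pathway genes with enough UMIs were called in mature B-like cells, Ifi30 and Cd83, both higher in Col1a1fspKO. There 16.6% of 1442 genes were called, 3.74% higher and 12.8% lower. In mononuclear phagocyte-like cells 1 of 15 was called, Nfyb, which was lower at 31 and 54 UMIs, where 7.27% of 5169 genes were called. In plasmacytoid dendritic-like cells none of 4 was called, where 13.2% of 851 genes were. The counts in these last 2 gates cannot be told apart from the background shares. The count in mature B-like cells rests on 7 genes and was not tested against its share.

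Across 11 gates in 2 libraries, the genes outside the set whose level went most nearly with the summed members were ranked by Pearson's r of log2(CPM + 10) over 22 points, among 9719 genes with at least 50 UMIs. Filip1l was first with r = 0.911, followed by Gngt2 (0.887), Pdcd2l (0.875), Ly6d (0.873) and Tnfrsf13b (0.865). Tmem55b, Plekho1, Pou2f2, Ly86 and Unc93b1 completed the first 10, the last at 0.851. Among the members, each set against the sum of the other 6, H2-Aa had 0.975, Cd74 0.961, H2-Eb1 0.949 and H2-Ab1 0.915. Ciita had 0.827, H2-DMb2 0.752 and H2-DMa 0.689, the lowest of the 7. The points share their libraries, and several gates hold few cells, so these values only describe the likeness. Ly86 was itself one of the monocyte markers of the gates.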

How the data were processed

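For each genotype the authors deposited a single matrix of UMI counts, genes by cells, made with Cell Ranger (version not given in the sources used here) from 10x Genomics 3′ libraries against mm10, with Seurat 3.5.3 named in the submitters' processing notes. The deposited counts are not normalized, and all cells lay within the limits on genes and mitochondrial share that the methods state. The approximate number of cells per sample given there is below both cell numbers in the files.

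Cells were assigned to the list with the highest mean z score of its markers among the 12 lists with at least 3 markers detected, and B-lineage cells were split by precursor and mature markers. Of the marker genes, 4 were not listed, and a gene absent from a table was taken as 0. The members, lists and tests were chosen with earlier results of these data known, and the scoring rule and the joining of monocyte, dendritic and macrophage lists were set after the files were seen. Counts were summed per gate and library and divided by the gate's UMIs. Intervals were exact Poisson (levels), Clopper-Pearson (shares) and exact binomial (ratios) at 95%, and cover counting error only, and they are too narrow where few cells hold most UMIs. The named genes were the members, the pathway list and the 10 genes most like the members. The count of pathway genes called in precursor B-like cells is not reported here. With 1 library per genotype there is no test. Alternatives used Seurat 5.3.0 clusters (27 components, resolution 0.8, 16 clusters, class II genes left out), a gate with at least 4 markers, Scrublet in scanpy 1.11.5, a shared minimum of 2909 UMIs, thinning to 2500 UMIs, removal of the 20 most abundant genes, and means over cells. Doublets were kept in the main values. Scrublet marked 5 cells in each library. Interval code was tested on simulated data. Gene positions came from GENCODE M21 and promoters from RefSeq (GRCm38.p6, the build of mm10), with the spacing of X and Y strings set after the sequences were seen, and matched 4 of the 7 members. Python 3.11.15 with scipy 1.17.1 was used.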

Additional observations from a re-analysis of the deposited data

How the results depend on the processing

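No paired analysis was possible because each genotype was 1 library. For the summed ratio of Col1a1fspKO over WT, assignment by clusters gave 0.730 in precursor B-like and 1.07 in mature B-like cells. A stricter gate gave 1.06 in mature B-like and 1.11 in mononuclear phagocyte-like cells. The shared UMI minimum gave 1.04 in mature B-like cells and 0.899 over all cells. Thinning gave 0.742 in plasmacytoid dendritic-like cells. Chosen after seeing the data, leaving out cells with a neutrophil share gave 1.25 in mature B-like cells, 0.709 in mononuclear phagocyte-like cells and 0.940 over all cells, and the monocyte-like cells alone gave 2.29. In plasmacytoid dendritic-like cells the summed ratio was below 1 under every alternative run, from 0.624 to 0.742. Among single members, H2-Eb1 in mature B-like cells fell to 0.994 with clusters, from 1.24. The cause of these shifts was not tested.

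The fold of mature over precursor B-like cells was 12.2 (Col1a1fspKO) and 9.67 (WT) as a mean over cells, 11.8 in WT with clusters, and 17.9 in Col1a1fspKO without cells with a neutrophil share. The fold of plasmacytoid dendritic-like over mononuclear phagocyte-like cells, 2.51 and 3.82, became 3.19 and 5.33 with clusters, 2.88 and 4.84 with the stricter gate, and 3.43 in Col1a1fspKO without cells with a neutrophil share.

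The share of cells with Cd74 fell with thinning by construction, to 26.8% and 25.8% in precursor B-like, 14.7% and 12.45% in mononuclear phagocyte-like, and 1.92% and 2.31% in neutrophil-like cells. Requiring 2 UMIs gave 26.2% and 24.5%, 12.7% and 10.1%, and 0.575% and 1.16% in the same gates, and 56.8% in plasmacytoid dendritic-like cells of Col1a1fspKO. As a mean over cells, 1 pathway gene rather than 2 passed 1.5-fold in mature B-like cells. Of the alternative values of the main comparisons, 57 stayed within the interval of the value reported and 34 moved out of it. Of those of single members, 207 stayed within it, 21 moved out of it and 1 reversed direction. Depth limits Ciita and, outside mature B-like cells, H2-DMb2.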

Other observations

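Small gates held isolated class II values. In the T-like gate of the Col1a1fspKO library, 1 of 31 cells held 73 of the 76 class II UMIs and also 7 UMIs of Cd79a, a chain of the B cell receptor. The 16 T-like cells of WT held 6 class II UMIs, with at most 1 in a cell. Among neutrophil-like cells, the cell richest in class II had 19 of 130 UMIs in Col1a1fspKO and 52 of 175 in WT, and each of these cells also had 6 UMIs of Cd79a. Of the 3 plasma cell-like cells of WT, 1 held 77 of 98 class II UMIs.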
